A study of Mus musculus with 4 samples.

Results

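The mitochondrial genome held 73 of the 42207 alternative start sites (ASSs) that were measured in mouse skeletal muscle. The 73 sites were taken by their chromosome alone, so no measured value entered the choice. Muscle came from AMPKα2−/− C57BL/6 mice (KO, n = 2) and from wild-type controls (WT, n = 2), with 1 library per animal and no treatment named. AMPKα2 is a catalytic subunit of AMP-activated protein kinase (AMPK). The knockout removes part of the catalytic domain from the gene in all tissues, so it is not limited to muscle. The study's methods place the KO mice at about 8 weeks of age and name the gastrocnemius as the muscle, whereas the sample labels say only adult skeletal muscle. For its 3′-end libraries, made from the same RNA samples, the study gives the KO and WT mice as male. Total RNA was depleted of ribosomal RNA (rRNA) and profiled with the WTSS-seq method (whole transcriptome start site sequencing), in which each read starts at the 5′ end of a captured RNA or RNA fragment. Each site is a cluster of such read starts on 1 strand, with a listed position and the span of the cluster.

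Mitochondrial DNA is a small circle that carries genes for the ribosomal RNAs and transfer RNAs (tRNAs) of the mitochondrial ribosome and for core subunits of the respiratory chain. Both of its strands are transcribed as long precursors from starts in the control region, and tRNAs that sit between the other genes are cut out to release the mature RNAs. Nearly all genes are read from 1 strand, called plus here. ND6 and a few tRNAs are read from the minus strand, and the rest of the minus-strand precursor is antisense to genes and is known to be removed quickly. In muscle, AMPK is known as a regulator of mitochondrial content through the coactivator PGC-1α, which is encoded by Ppargc1a.

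The libraries held 1300069 to 2900279 reads, fewer in both WT than in both KO libraries. Prkaa2, which encodes AMPKα2, had 19 sites with summed normalized counts of 149 and 182 in KO against 153 and 185 in WT (DESeq2 log2 fold change −0.03, SE 0.51, adjusted p = 0.999), so its reads gave no check of the KO labels. How many of its sites lie outside the removed part is not given in the sources used here. All 10 markers of skeletal muscle had sites, and their summed level was 15682 and 20200 reads per 1000000 library reads (RPM) in KO against 15170 and 24460 in WT. Markers of fibroblasts (6 of 6 with sites) summed to 1447 and 1049 RPM in KO against 1732 and 1569 in WT. Adipocyte markers (5 of 5) summed to 3320 and 1462 RPM in KO against 3198 and 1669 in WT. Nearly all of that sum was Fabp4, with 3269 and 1421 RPM in KO against 3138 and 1636 in WT. It therefore does not describe the other adipocyte markers, such as Adipoq with 15.9 and 17.8 against 19.2 and 11.5 RPM. Endothelial markers (3 of 3) summed to 7.81 to 26.1 RPM. Of 5 blood markers only 1 had a site, at 1.91 to 3.85 RPM, and no site of Hbb-bs, the adult beta globin gene, was listed. Markers of oxidative fibres, which are rich in mitochondria (7 of 8 with sites), summed to 746 and 964 RPM in KO against 462 and 815 in WT. Of the 7 tested as gene sums, 0 were called by DESeq2 (1.9% of all sums were). Their median log2 fold change was 0.73 with 6 of 7 above 0, against 0.00 over all sums. The list joins slow-fibre genes with Myh2, the myosin of fast oxidative fibres. Myh2 had 261 and 400 RPM in KO against 277 and 363 in WT. The overlap of the summed levels therefore does not describe the slow-fibre genes alone. In RPM, Myh7, Tnnt1, Tnni1, Tnnc1 and Atp2a2 were higher in both KO than in both WT libraries, while Myl3 overlapped. In normalized counts Myh7 overlapped as well, with 576 and 801 in KO against 218 and 613 in WT. In RNA from whole muscle, fewer cells of a type and less RNA per cell cannot be told apart.

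Of the 73 mitochondrial sites, 31 lay on the plus strand and 42 on the minus strand. By the class codes of the table, 38 (52.1%) were antisense to an exon, against 2.61% of the nuclear sites. Another 23 were contained in a reference transcript, 4 matched a whole one, 3 overlapped an exon in another way, 3 lay just outside a gene and 2 were intergenic. The table assigned 18 gene symbols, all of them found among the 37 mitochondrial genes of the RefSeq table for GRCm38. For 8 sites the gene at the listed position differed from the symbol. When each site was placed by its position and strand, 20 were sense to a protein gene, 4 to an rRNA gene and 3 to a tRNA gene, 39 were antisense, 6 lay in the control region and 1 lay between genes.

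The reads were concentrated in few sites. The 5 largest sites held 93.9% of the mitochondrial reads and the 10 largest held 98.0%, while 41 sites had fewer than 100 reads in total. The median site had 75 reads over the 4 libraries, with a range from 10 to 1388600, against a median of 19 for nuclear sites. Mitochondrial clusters were also wide, with a median of 76 bases against 13 in the nucleus. At least 1 read was found at 71 and 72 of the 73 sites in KO and at 63 and 71 in WT, and 59 sites had reads in every library. WT replicate 1, with the fewest sites, was also the shallowest library.

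**Figure D1:**
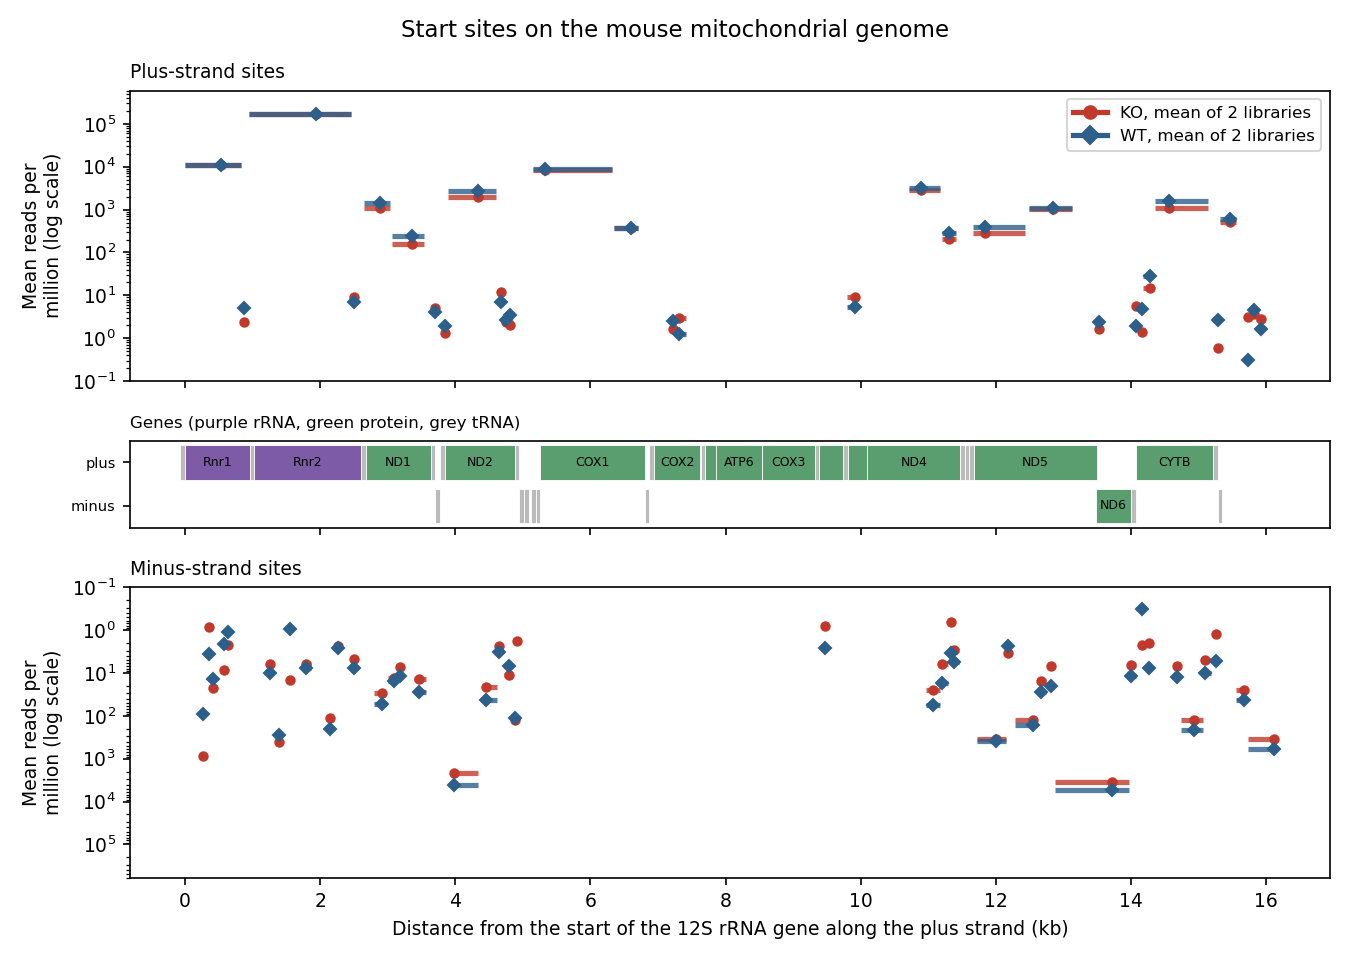
Mean RPM of each mitochondrial site in KO and WT (n = 2 libraries each, log axes) by distance from the start of the 12S rRNA gene, with plus-strand sites above the gene map and minus-strand sites below it on an axis that points down. Bars show the span of a cluster and markers its listed position, and a site whose 2 libraries of a group are at 0 has no mark for that group. The 16S and 12S sites stand highest, and the stretch from COX2 to ND4L holds 4 sites.

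Ribosomal RNA made up most of the mitochondrial reads in all 4 libraries, although rRNA had been depleted. Sense reads on the 12S (Rnr1) and 16S (Rnr2) genes, whose products form the small and large subunit of the mitochondrial ribosome, were 88.3% and 86.4% of mitochondrial reads in KO and 85.1% in each WT library. Nearly all of them came from the site at 2014, which spans 1020 to 2529 on the plus strand. The table labels it TrnV, the tRNA gene at 1025 to 1093, but its position lies inside Rnr2 at 1094 to 2675. This single site had 478628 and 405315 reads in KO against 203851 and 300806 reads in WT, or 83.8% and 80.6% against 80.7% and 79.4% of mitochondrial reads. It alone was 15.7% to 19.2% of all reads of a library, close to the 15.2% to 17.6% taken by the cytoplasmic 18S rRNA. The main Rnr1 site at 603, spanning 66 to 892, had 25241 and 29364 reads in KO against 10948 and 21493 reads in WT. Within each genotype its level differed by more than that of Rnr2, with 9113 and 13354 sense reads per kb of gene on the RPM scale (RPKM) in KO against 8821 and 14352 in WT. The lower value of each genotype was in replicate 1.

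Among the protein genes, sense sites were found for 9 of 13. COX1, which encodes the catalytic subunit of cytochrome c oxidase, had its largest site at 5397, just inside the gene start, with 19623 and 22784 reads in KO against 9670 and 16026 reads in WT. ND6, the complex I subunit encoded on the minus strand, had 1 wide site at 13791 with 9541 and 8626 reads in KO against 4992 and 10464 reads in WT. That cluster runs from 12949 to 14034 and so extends beyond ND6 (13552 to 14070) under the end of ND5, so reads from outside the gene count toward its level per kb. The other large sense sites were those of the complex I genes ND4 (10962), ND2 (4403), ND1 (2950) and ND5 (12914), and of CYTB (14637), the complex III subunit. ND4 had 8436 and 6218 reads there in KO against 3703 and 5556 in WT. At the ND2 site, 4826 and 5277 reads were found in KO against 3436 and 4354 in WT. CYTB had 2735 and 2936 against 1892 and 2597, ND1 had 3215 and 2561 against 1634 and 2582, and ND5 had 2817 and 2413 against 1289 and 1847. In each of these sites the deeper KO libraries had more reads than WT replicate 1, the shallowest, so the levels below are scaled to library size.

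Per kb of gene the levels of the sense sums spanned a wide range. The 16S gene had 107781 ± 4892 RPKM in KO and 110158 ± 15612 in WT (SD, n = 2). Rnr1 followed with 11234 ± 2999 in KO and 11587 ± 3911 in WT, ND6 with 6777 ± 620 and 10125 ± 3855, and COX1 with 5629 ± 1434 and 5954 ± 1327. ND2 had 1922 ± 422 and 2625 ± 96.2 RPKM in KO and WT, and ND4 had 2189 ± 122 and 2520 ± 394. ND1 had 1322 ± 23.4 and 1773 ± 335, CYTB 983 ± 209 and 1389 ± 125, and ND5 712 ± 11.5 and 805 ± 111. The order Rnr2, Rnr1, ND6, COX1 held in each of the 4 libraries, and COX1 was above ND2 and ND4 in every library without overlap. ND2 and ND4 exchanged places between libraries. ND4, ND1, CYTB and ND5 descended in that order within each library, although the ranges over the 4 libraries overlapped between ND1 and CYTB and between CYTB and ND5. As a level here sums fragment ends over a gene, it describes captured ends rather than full transcripts.

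**Figure D2:**
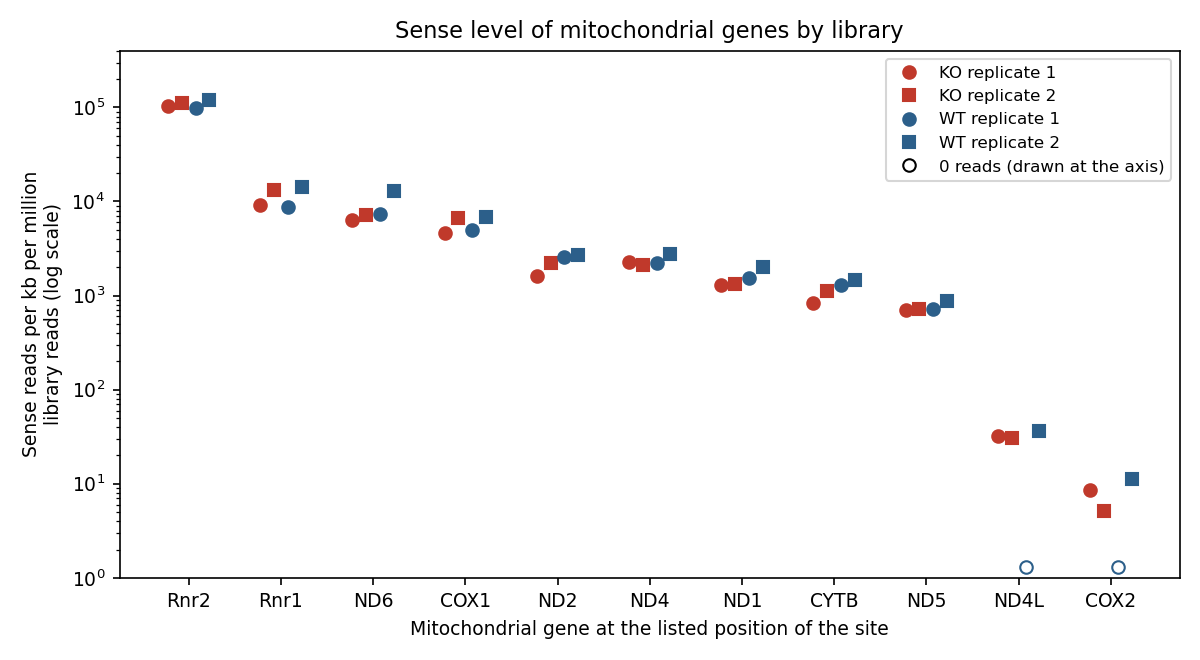
Sense RPKM of the 11 mitochondrial rRNA and protein genes with a sense site, by library on a log axis, each point being 1 library. Rnr2 lies highest in every library, the genes from Rnr1 to ND5 lie between 704 and 14352, and ND4L and COX2 lie at or below 36.5, with both at 0 reads in WT replicate 1.

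ND4L and COX2 were the exceptions among the detected genes. ND4L, a small complex I subunit, had 28 and 21 reads in KO against 0 and 17 in WT, and COX2, the subunit that receives electrons from cytochrome c, had 17 and 8 in KO against 0 and 12 in WT. Both genes lie at the ends of a stretch from 7013 to 10173 (3161 bases, 20.5% of the gene-bearing span) that was singled out after its values were seen. It held 4 sites with 46 and 32 reads in KO against 0 and 37 in WT, and a count of 0 in WT replicate 1 allows up to 2.31 RPM. No site of either strand was listed from 7484 to 9532, where ATP8 and ATP6, the mitochondrially encoded subunits of ATP synthase, and COX3 lie. ND3 had 1 antisense site with 1 and 3 reads in KO against 0 and 8 in WT. Chromosome 1 of the nuclear genome carries annotated pseudogenes of mitochondrial origin, Gm10222 at 24612404 to 24612700 and Gm10925 at 24613971 to 24614651, and reads of near-identical copies may be assigned to either place. Within 2000 bases of them 2 sites were listed, with 14 and 55 reads in KO against 9 and 8 in WT. The levels of COX2 to ND4L are therefore uncertain, and the part of the nuclear copy in them was not tested. Beyond the ND4L site no site began before 10783, so the first part of ND4 (10167 to 11544) held none. The level of ND4 per kb is nevertheless divided by the full gene.

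The listed positions seldom coincided with an annotated gene start. Only 3 sites had their position within 10 bases of one, at ND2, CYTB and ND6, and they held 0.00490% and 0.00795% of mitochondrial reads in KO against 0.00475% and 0.00924% in WT. These shares rest on 12 to 40 reads per library. The position is a single base of each cluster, and the spans of the largest clusters on Rnr1, Rnr2, ND1 and COX1 include a gene start, so how many reads began at the starts cannot be read from the table. The listed position of the largest site was 69 bases inside COX1, 199 bases inside ND1 and 492 bases inside CYTB. Transfer RNAs were nearly absent as sense sites. TrnI had 10 and 15 reads in KO against 10 and 1 in WT, and TrnE had 7 and 25 against 7 and 29. TrnT had 1 and 2 in KO against 1 and 7 in WT. Mitochondrial tRNA genes are 59 to 75 bases long, while cDNA of 250 to 500 bp was selected. These libraries could therefore hardly capture mature tRNAs, and the counts do not describe their level. Sites were also placed by their listed position, and the span of the largest site (1020 to 2529) includes TrnV.

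Antisense sites lay on 7 protein genes, 2 tRNA genes and both rRNA genes. Together they held 1.81% and 2.54% of mitochondrial reads in KO against 3.23% and 2.26% in WT, groups that overlap. The largest lay antisense to ND2 at 4052, spanning 4038 to 4400, with 6650 and 4855 reads in KO against 5919 and 5505 in WT. On ND2 the antisense reads outnumbered the sense reads in every library, with 58.4% and 50.5% of the reads on the gene in KO against 63.8% and 57.0% in WT. Among the other protein and rRNA genes with reads of both orientations, ND5 came next with 17.0% and 35.9% in KO against 31.2% and 27.4% in WT, then CYTB with 9.33% and 12.8% against 11.2% and 15%. The wide ND6 cluster, which extends under the end of ND5, counts as sense by its listed position. Any of its reads antisense to ND5 are left out of these shares and of the antisense total, so the rank of ND5 is uncertain. ND1 had 4.68% and 4.75% in KO against 4.55% and 7.08% in WT, and ND4 had 1.13% and 1.14% against 2.05% and 2.56%. On the 16S gene, antisense reads were 0.25% to 0.347% of a far larger total. TrnT had 1 to 12 antisense reads per library against 1 to 7 sense reads, too few to rank. COX1 had no antisense site, although its gene is among the longest and its sense level was high.

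**Figure D3:**
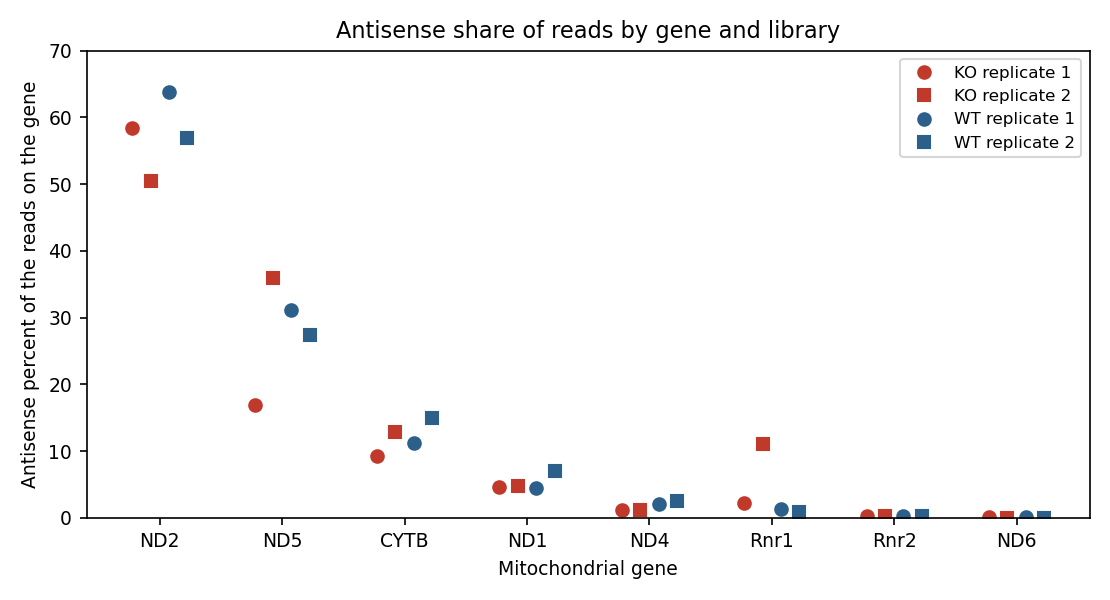
Antisense reads as a percent of all reads on a gene, by library, each point being 1 library. ND2 is above 50% in all 4 libraries, and Rnr1 is at 11% in KO replicate 2 against 0.816% to 2.28% in the other libraries. ND5 ranges from 17.0% to 35.9%, without any reads of the ND6 cluster that extends under it.

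At the next largest antisense sites the libraries of a genotype also differed from each other. The site antisense to the 16S gene at 1454 had 1029 and 1046 reads in KO against 508 and 265 in WT. Antisense to ND5 at 12077 there were 461 and 1248 reads in KO against 548 and 568 in WT, and antisense to CYTB at 15000 there were 258 and 386 in KO against 217 and 405 in WT. In normalized counts the ND5 site was lowest in KO replicate 1 (303) and highest in KO replicate 2 (1077), with 744 and 656 in WT between them, and the genotypes overlapped at each of these 3 sites. The site antisense to the 12S gene at 337, spanning 329 to 346, was the most uneven, with 471 and 3579 reads in KO against 117 and 146 in WT.

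In the control region, the non-coding segment that holds the promoters and the replication origin of 1 strand, 4 plus-strand and 2 minus-strand sites were listed. The plus-strand sites summed to 515 and 535 RPM in KO against 605 and 600 RPM in WT. Most of this came from the site at 15536, labelled as antisense to TrnP, with 1469 and 1210 reads in KO against 780 and 929 in WT. The minus-strand sites summed to 270 and 462 RPM in KO against 528 and 727 RPM in WT, and the site at 16192 held most of them with 716 and 1006 reads in KO against 638 and 1064 in WT. As a share of mitochondrial reads the control region was 0.399% and 0.457% in KO against 0.583% and 0.55% in WT. In RPM the values of KO lay below those of WT on both strands. In normalized counts the site at 16192 overlapped between the genotypes, with 470 and 868 in KO against 866 and 1229 in WT, and no control-region site was called.

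The comparison of KO with WT addresses whether loss of AMPKα2 goes with a change in mitochondrial RNA. Mitochondrial reads were 19.7% and 21.8% of library reads in KO against 19.4% and 24.1% in WT, with means of 20.8% ± 1.52 and 21.8% ± 3.34 (SD, n = 2), so that the difference of −1.02 percentage points (KO minus WT) was smaller than the spread within WT. The libraries rose by this share in the order WT replicate 1, KO replicate 1, KO replicate 2 and WT replicate 2. This was also their order by the summed RPM of the skeletal muscle markers given above. Myh4 held most of each sum, with 9218 and 12084 RPM in KO against 8740 and 13835 in WT. Myh4, Tnnc2, Myh1 and Actn3 each had this order, whereas Acta1, Ckm, Mylpf, Tnni2, Tnnt3 and Pvalb did not. The part of muscle content in the share was not tested. An exact two-sided permutation test of 2 against 2 libraries cannot give a p below 0.333, so no share was tested. Binomial 95% intervals of these shares (Wilson) were at most 0.136 percentage points wide and cover counting error only.

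Within the mitochondrial reads the minus strand held 3.62% and 4.47% in KO against 5.48% and 5.33% in WT. The means were 4.04% ± 0.600 in KO and 5.41% ± 0.101 in WT (SD, n = 2), a difference of −1.36 percentage points, and the groups did not overlap. Leaving out the site at 337 widened the gap, with 3.54% and 3.78% in KO against 5.43% and 5.30% in WT. ND6 accounted for 1.67% and 1.71% in KO against 1.98% and 2.76% in WT, and antisense ND2 for 1.20% and 1.08% against 2.41% and 1.53%. The other 35 minus-strand sites held 0.662% and 0.963% in KO against 1.04% and 0.999% in WT. Sense rRNA went the other way, as given above, and sense mRNA was 9.52% and 10.6% in KO against 11.1% and 12.1% in WT. Shares of 1 total are not independent. With sense rRNA left out of the total, the minus strand was 30.8% and 32.9% in KO against 36.6% and 35.7% in WT, still without overlap, while sense mRNA was 81.1% and 77.9% in KO against 74.4% and 81.1% in WT and overlapped.

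**Figure D4:**
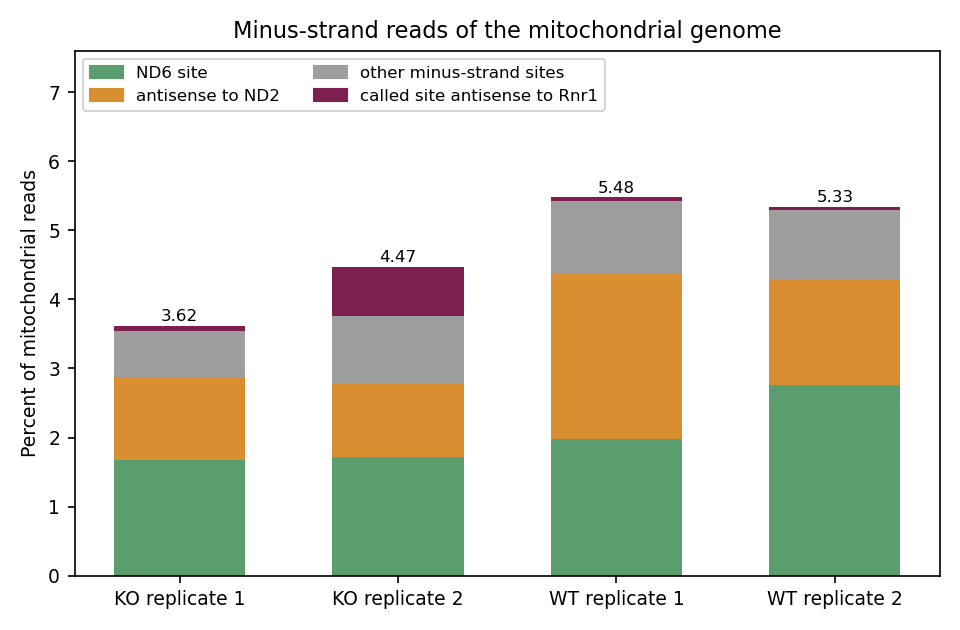
Minus-strand reads as a percent of mitochondrial reads by library, stacked into the ND6 site, the sites antisense to ND2, the called site antisense to Rnr1 and all other minus-strand sites, with the total printed above each bar. The KO bars end at 3.62 and 4.47 and the WT bars at 5.48 and 5.33, and the called site is thick in KO replicate 2 alone.

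Of the 73 sites, 47 passed the filter of DESeq2 on mean count and were tested, and the other 26 had at most 36 reads in total. At an adjusted p below 0.1, 1 of the 47 was called (2.13%), higher in KO, against 3.21% of all 11112 sites tested. It is the site antisense to the 12S gene at 337, with normalized counts of 309 and 3089 in KO against 159 and 169 in WT. Its log2 fold change was 3.38 (SE 0.82, DESeq2 adjusted p = 0.00550), and edgeR did not call it (adjusted p = 0.179). Without KO replicate 2 the log2 fold change was 0.90 with an adjusted p of 0.9999 in DESeq2, so the call rests on that library. Over 15 alternatives the adjusted p ranged from 0.000656 to 0.9999. Neither tool called a site lower in KO, and edgeR called 0 mitochondrial sites, against 0.712% of the 11242 sites it tested. At an unadjusted p under 0.05 there were 2 mitochondrial sites in DESeq2 and the same 2 in edgeR, the site at 337 and one antisense to the 16S gene at 1624.

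The 46 uncalled sites had log2 fold changes from −1.44 to 3.99 and adjusted p-values of 0.223 or more. The highest value belongs to the site at 1624, with 62 and 19 reads in KO against 0 and 3 in WT, where a fitted fold change depends on the handling of the 0. For the largest site, that of the 16S gene, normalized counts were 314101 and 349786 in KO against 276626 and 347458 in WT, and the fold change was 0.09 on the log2 scale (SE 0.53). The corresponding values were 0.08 (SE 0.57) for the 12S site, 0.04 (SE 0.55) for COX1, −0.07 (SE 0.53) for ND4 and 0.02 (SE 0.54) for ND5. The ND6 site was at −0.46 (SE 0.56), CYTB at −0.36 (SE 0.54), ND2 at −0.33 (SE 0.54) and ND1 at −0.27 (SE 0.54). The site antisense to ND2 had normalized counts of 4364 and 4190 in KO against 8032 and 6359 in WT, without overlap, and its log2 fold change was −0.75 (SE 0.53, DESeq2 adjusted p = 0.850). A 95% interval of a mitochondrial site, not corrected for multiple tests, reached a median of 1.47 log2 units to either side. Many sites could therefore not show changes below that size, while the intervals of the largest sites were narrower.

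The fold changes were also described by strand. The median log2 fold change was −0.07 over the 17 tested plus-strand sites and −0.62 over the 30 tested minus-strand sites, of which 23 were below 0. Over all 47 it was −0.29, against 0.10 over all sites tested. Other scalings moved the median of all sites to values between −0.05 and 0.10, and relative to that median the minus strand lay between −0.64 and −0.73. Without WT replicate 2 the minus-strand median was −0.03, and without KO replicate 1 it was −0.38. The difference between the strands was not tested. When the counts of each strand were summed and fitted with the nuclear sites, the log2 fold change was −0.47 for the minus strand (SE 0.42, DESeq2 adjusted p = 0.990) and −0.05 for the plus strand (SE 0.40, DESeq2 adjusted p = 0.999). Neither sum was called.

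**Figure D5:**
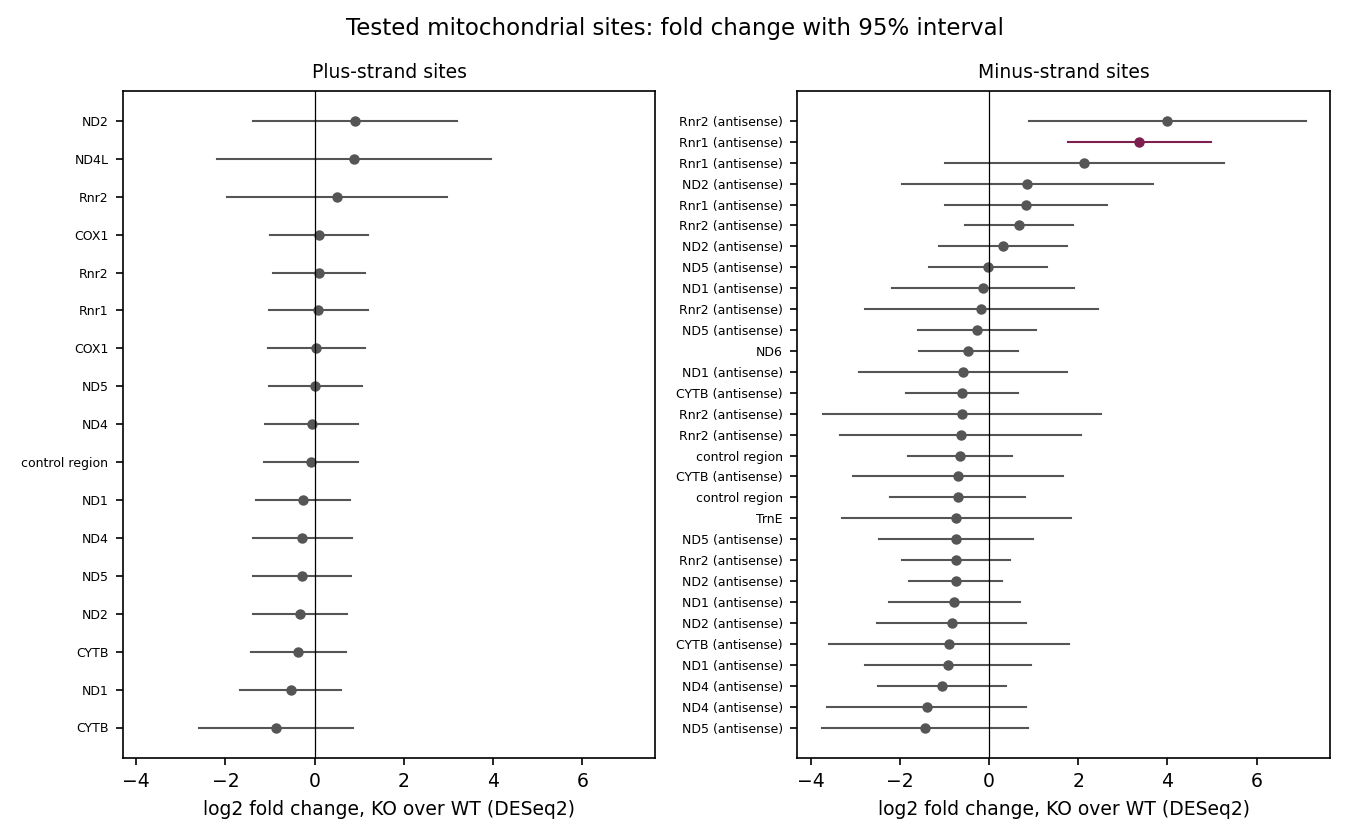
DESeq2 log2 fold change of KO over WT with its 95% interval for the 17 tested plus-strand and 30 tested minus-strand sites, ordered by size and named by the gene at the site. The intervals of 2 sites, both antisense to an rRNA gene, exclude 0, and the called site antisense to Rnr1 is drawn in dark red.

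Sites with at least 10 reads in every library were also compared by their levels. Of 35 such sites, KO was below WT without overlap in RPM in 19 (54.3%), against 28.3% of the 4634 sites of all chromosomes that met this limit. KO was above WT in 2 (5.71%), against 13.6%. In normalized counts KO was below WT in 14 of the 35, against 22.8% of the 4634 sites. KO was above WT there in 2 of the 35, against 17% of the 4634. The 19 sites comprised 11 of 21 on the minus strand and 8 of 14 on the plus strand. The median absolute log2 difference between replicates over these 35 sites was 0.23 in KO against 0.39 in WT, and that between the group means was 0.60. Over all 4634 sites the same measures were 0.60 in KO, 0.58 in WT and 0.51 between the group means. The sites of 1 genome share their precursors, so they are not independent measurements of the genotype.

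Summed by gene symbol and orientation, 25 mitochondrial sums were tested and 1 was called (4%), against 1.9% of all 7568 sums. This was antisense Rnr1, which holds the site at 337, with normalized counts of 360 and 3167 in KO against 204 and 220 in WT, and the fitted log2 difference was 3.06 (SE 0.69, DESeq2 adjusted p = 0.00224). In edgeR its adjusted p was 0.133, and 0 mitochondrial sums were called there against 1.17% of all. It was uncalled in DESeq2 without KO replicate 2 (log2 fold change 0.79), and also without WT replicate 1 (3.01) or WT replicate 2 (3.08). Sense sums were tested for 9 protein genes, of which 7 were below 0, with a median of −0.21. They ranged from −0.58 (SE 0.44) for ND6 to 0.74 (SE 1.45) for ND4L, where WT replicate 1 was at 0. Of 8 antisense sums, 1 of which is the control-region site labelled as antisense to TrnP, 6 were below 0. The sum antisense to ND2 was at −0.82 (SE 0.39, unadjusted p = 0.0360, DESeq2 adjusted p = 0.514) and that antisense to ND4 at −1.27 (SE 0.58, unadjusted p = 0.0275, DESeq2 adjusted p = 0.443). Neither of these 2 sums passed the correction.

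The proportions of sites within a gene were tested for 8 mitochondrial genes by edgeR's test of differential usage. None of the 8 was called, against 1.37% of 2184 genes. Rnr1 had the smallest adjusted p (0.182, unadjusted 0.00508), followed by Rnr2 (0.486, unadjusted 0.0396), and 2 genes had an unadjusted p under 0.05.

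A list of 53 nuclear genes for the expression of mitochondrial DNA had sites for 30 members, of which 20 were tested as gene sums and 0 were called by DESeq2, against 1.9% of all sums, a share at which 0 calls among 20 carries no information on the list. An unadjusted p under 0.05 was found for 2 members, Gfm1, a translation elongation factor with 17 and 19 reads in KO and none in WT (DESeq2 adjusted p = 0.251), and Fastkd2, an RNA-binding protein of mitochondria with 40 and 2 reads in KO and none in WT (DESeq2 adjusted p = 0.328). In edgeR 0 were called, against 1.17% of all sums. The median log2 fold change was 0.45 with 14 of 20 above 0, against 0.00 over all sums tested. Gfm1 and Fastkd2 are among the 14, and they passed the filter on mean count through KO reads alone. The median therefore gives no result on the list. Counts were low throughout, with 963 to 1937 reads per library over the whole list. Mtif2, the mitochondrial translation initiation factor, had the most, with 554 and 690 reads in KO against 815 and 387 in WT (log2 fold change −0.79, SE 0.53). Mtrf1l, a release factor, had 350 and 441 in KO against 156 and 118 in WT (0.71, SE 0.52). The regulators Nrf1 and Gabpa, transcription factors for nuclear genes of the respiratory chain, were at −0.31 (SE 0.59) and 0.22 (SE 0.64), and Ppargc1a, with 169 and 91 reads in KO against 41 and 64 in WT, was at 0.41 (SE 0.62). By group, 6 of 15 genes for transcription and replication, 8 of 18 for RNA processing and decay, 10 of 12 for translation and 6 of 8 regulators had sites. Tfam, which packages mitochondrial DNA and opens its promoters, had 28 and 9 reads in KO against 12 and 1 in WT and was at 0.48 (SE 1.49, DESeq2 adjusted p = 0.999).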

How the data were processed

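The deposited table held raw read counts per start site, which the authors made from reads of an Ion PGM sequencer, after selection of cDNA of 250 to 500 bp and 20 PCR cycles, without molecular identifiers. Quality filtering, mapping with TMAP, clustering of read ends within 24 nucleotides and class codes from Cuffcompare are described by the study for its companion 3′-end libraries, and settings for the 5′-end libraries are not given in the sources used here. The labels name the build GRCm38.p5. Sites were placed by listed position and strand on the mitochondrial genes of the RefSeq table for GRCm38, with gene strands assigned from general knowledge. Mitochondrial reads numbered 252554 to 570905 per library.

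All 42207 sites were fitted with DESeq2 1.42.0 (adjusted p below 0.1, default independent filtering), edgeR 4.0.16 being the alternative, and only mitochondrial results are printed. Sums by symbol and orientation and site usage were fitted likewise. RPM and RPKM were computed here from the counts. The DESeq2, edgeR and site usage fits were tested on simulated counts, while the placement of sites and the shares were not. The named items were all mitochondrial rRNA and protein genes, tRNA genes with a site, the 10 largest sites, the 5 largest antisense sites, all called items and the 5 listed nuclear genes with most reads. The members and lists were chosen with earlier results of these data known. The deviations of same-numbered KO and WT libraries had a correlation of 0.0720 over 10728 sites, which does not settle whether they were paired.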

Additional observations from a re-analysis of the deposited data

How the results depend on the processing

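With 2 libraries per group and most sites under 100 reads, only large changes were detectable. The call of the site antisense to Rnr1 was lost, with 0 mitochondrial sites called, in edgeR, in edgeR with DESeq2 size factors, in edgeR with the replicate block and without KO replicate 2, so that leaving out each library in turn gave 0 to 1. Its log2 fold change ranged from 0.90 to 4.27 over 15 alternatives, with adjusted p-values from 0.000656 to 0.9999. For gene sums, 0 mitochondrial sums were called in the same 3 edgeR fits, and leaving out each library gave 0 to 1. Over all sites the 357 calls became 80 in edgeR, 71 in edgeR with DESeq2 size factors, 175 without independent filtering, 234 at a threshold of 0.05 and 44 to 250 when 1 library was left out. Over all gene sums the 144 calls became 78 in edgeR, 75 with DESeq2 size factors and 69 to 78 without 1 library. Over all genes tested for usage the 30 calls became 76 in the gene-level F test, 15 at a threshold of 0.05 and 1 to 26 without 1 library. Deviations of same-numbered libraries had a correlation of 0.0720 over all sites and −0.133 over the 47 mitochondrial sites. This does not settle whether they shared a litter or batch, as the labels give only the replicate number. With that number as a replicate block, all site calls were 195 in DESeq2 and 1 in edgeR, gene sums 78 in edgeR and usage 12, and the block changed no other mitochondrial call. Without sense rRNA in the total, the difference of KO minus WT was 1.74 percentage points for sense mRNA, −1.33 for antisense, −4.34 for the minus strand, −0.412 for the control region, −0.0124 for sense tRNA and 0.00330 for sites within 10 bases of a gene start. Some uncalled log2 fold changes smaller than their own SE changed sign, in 28 alternatives over 7 sites and 18 alternatives over 10 gene sums, and no called value did. Placing sites by position in place of symbol also gave 1 call among the gene sums, and neither strand sum was called in the versions run, both of which were chosen after seeing the data. The cause of these differences was not tested.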
